A study of Mus musculus with 20 samples.

Results

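The respiratory chain assembly factors are proteins that help to build Complexes I, III, IV and V of the inner mitochondrial membrane without being structural subunits of the finished enzymes. A list of 31 such genes was taken by symbol from the 23420 genes of the count table. No measured value entered the rule that chose them, although earlier results of these data were known by then. The list holds 14 factors of Complex I, 3 of Complex III, 11 of Complex IV, 2 of Complex V and the insertase *Oxa1l*, which serves several complexes. All 31 were in the table, and 30 passed the filter of at least 1 CPM, the count scaled to library size, in at least 10 mice and were among the 13590 genes tested.

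Each respiratory complex is assembled stepwise from mitochondrial and nuclear gene products, and cofactors such as iron-sulfur clusters, heme and copper must be inserted on the way. Assembly factors stabilise intermediates, modify subunits or deliver these cofactors, and then leave. The heart depends on the finished complexes for most of its ATP, and inherited defects of many of these factors cause mitochondrial disease that can affect the heart.

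Whole hearts of 20 wild type C57BL/6 male mice were analysed, 10 fed the control diet and 10 made iron-deficient and anemic (IDA mice) on an iron-deficient diet. All mice received their diet for 6 weeks from an age of 3 weeks and were 9 weeks old. The labels give the iron of the deficient diet as below 2 ppm in one field and above 2 ppm in another. Control libraries held 6797180 to 8960688 counted read pairs and IDA libraries 6682177 to 7833916 (two-sided permutation test, p = 0.00956).

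All 9 cardiomyocyte markers were above 1 CPM, and lung markers and *Ucp1* were below it. The summed level of the erythroid markers, of which 9 of 11 were in the table, lay between 90.4 and 173 CPM in control hearts and between 184 and 649 CPM in IDA hearts. Of these, *Hba-a1* and *Hba-a2* were below 1 CPM. Leukocyte markers summed to 358 to 416 CPM in control hearts and 364 to 505 CPM in IDA hearts (5 of 9 higher, 1 lower). Markers of brown fat, which include the subunit gene *Cox8b*, summed to 103 to 135 and 131 to 148 CPM, and the part of these cells in the results was not tested. One mouse of each diet was left out by the study for contamination without being named, and all 20 are kept here. Liver markers summed to 122 CPM in 1 IDA heart against a median of 8.85, and to 61.3 CPM in 1 control heart against a median of 3.86. Skeletal muscle markers, of which 4 of 6 were below 1 CPM, summed to 19.6 CPM in IDA mouse 9 against an IDA median of 3.48. In whole tissue, fewer cells of a type and less RNA per cell cannot be told apart.

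The libraries of the diets also differed in how counts depended on gene length. A slope of log2 level on each doubling of exonic length lay between 0.02 and 0.20 in control mice and between -0.25 and -0.03 in IDA mice, without overlap. When genes were split by exonic length into 10 bins of equal size, the median log2 fold change was 0.34 in the bin of the shortest (median 881 bp of exon) and -0.53 in that of the longest (median 7761 bp). The tested assembly factors were mostly short, since 23 of the 30 lay below the median exonic length of 2900.0 bp. Each result is therefore given as counted and after a gene length correction, which removed from every mouse a smooth trend on exonic length. A further fit removed gene length and GC content together. The trend and the diet cannot be told apart in this design.

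Without correction, 21 of the 30 tested assembly factors were higher in IDA hearts and 2 were lower, by edgeR's quasi-likelihood test at a Benjamini-Hochberg adjusted p below 0.05 over 13590 genes. Of all tested genes, 35.0% were called higher and 32.5% lower. The median log2 fold change of the factors was 0.20, against 0.02 over all tested genes. With the gene length correction, 11 factors were higher and 4 lower, beside 31.5% and 23.5% of all genes, and the median was 0.07 against 0.04. The fit for gene length and GC content called 19 higher and 1 lower, beside 28.1% and 19.5% of all genes.

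In all 3 fits, 10 of the 30 tested factors were higher. They were *Ndufaf5*, *Ndufaf7*, *Foxred1*, *Acad9* and *Timmdc1* of Complex I, *Bcs1l* of Complex III, *Sco1*, *Cox10* and *Cox19* of Complex IV, and *Oxa1l*. Of all tested genes, 14.1% were higher in all 3 fits. None of the 30 was lower in all 3 (0 factors, beside 13.3% of all genes), although *Cox15* and *Lrpprc* were lower without correction and *Tmem126a*, *Tmem126b*, *Cox17* and *Taco1* with the gene length correction. *Tmem126a* and *Cox17* were called in opposite directions by the uncorrected and the length-corrected fit, as were 3.76% of all genes. *Cox15* and *Lrpprc*, lower without correction, were called higher by the fit for gene length and GC content.

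**Figure D1:**
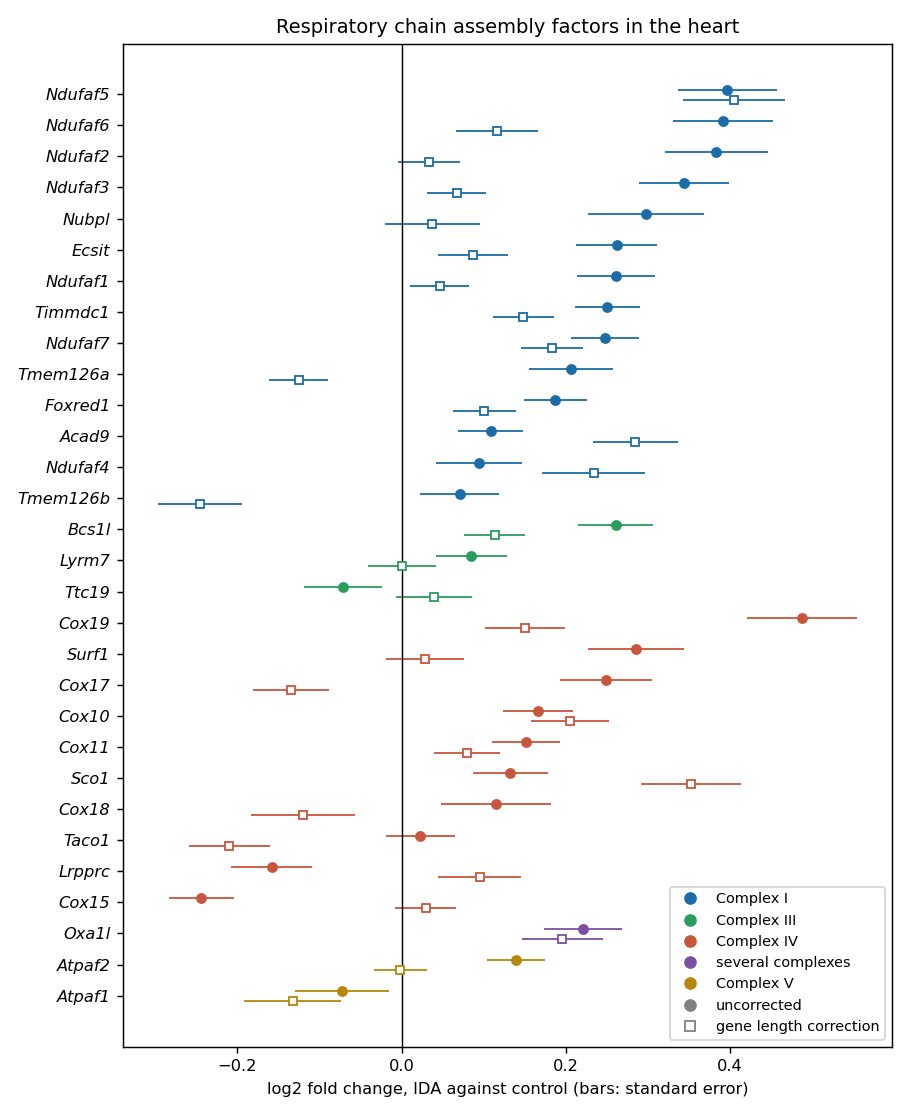
Log2 fold change (IDA against control) of the 30 tested assembly factors, sorted within each complex, with standard errors. Filled circles are the uncorrected fit and open squares the fit with the gene length correction; *Ndufaf5* stayed near 0.40 in both, *Cox15* moved from -0.24 to 0.03, and *Tmem126a* and *Cox17* changed sign.

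Of the 14 Complex I factors, 12 were higher and 0 lower without correction, beside 35.0% and 32.5% of all genes. The others, *Ndufaf4* and *Tmem126b*, had log2 fold changes of 0.09 and 0.07. With the gene length correction 6 were higher and 2 lower, beside 31.5% and 23.5% of all genes. With GC content added 9 were higher and 0 lower, beside 28.1% and 19.5%. The largest change as counted was that of *Ndufaf5* (chr2:140170646-140205252 in mm10), which hydroxylates an arginine of the subunit NDUFS7. It ranged from 45.0 to 53.4 CPM (median 49.0) in control hearts and from 55.3 to 81.2 CPM (median 64.9) in IDA hearts. All 10 IDA hearts were above the highest control heart. The means were 49.2 ± 2.87 against 64.7 ± 7.91 CPM (SD, n = 10 each), a 1.32-fold difference (log2 fold change 0.40, standard error 0.06, edgeR adjusted p = 6.18e-06).

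*Ndufaf5* kept its size after the gene length correction, with a log2 fold change of 0.40 (edgeR adjusted p = 1.24e-05) then and 0.52 (edgeR adjusted p = 3.85e-06) after the correction for length and GC content. After the gene length correction it was the single factor whose IDA and control values did not overlap, as held for 3.02% of all genes in the higher direction and 2.12% in the lower, where no factor stood. Before the correction, *Ndufaf5*, *Ndufaf6* and *Ndufaf7* did not overlap between diets, beside 4.97% of all genes higher and 6.28% lower in that way, and 0 factors were separated in the lower direction.

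*Ndufaf7*, an arginine methyltransferase needed early in Complex I assembly, ranged from 62.4 to 73.8 CPM (median 68.8) in control hearts and from 74.5 to 89.7 CPM (median 82.9) in IDA hearts. Its log2 fold change was 0.25 (edgeR adjusted p = 1.91e-05), and 0.18 (edgeR adjusted p = 0.000318) with the gene length correction. *Ndufaf6*, whose part in early assembly is less defined, ranged from 26.1 to 34.2 CPM (median 31.4) in control hearts and from 34.9 to 47.6 CPM (median 40.7) in IDA hearts. Both genes separated the diets as counted, but the change of *Ndufaf6* went from 0.39 to 0.12 (edgeR adjusted p = 0.0536), outside the threshold.

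*Nubpl* (chr12:52097746-52310959), which delivers iron-sulfur clusters to Complex I, ranged from 21.5 to 30.5 CPM (median 25.4) in control hearts and from 26.4 to 34.8 CPM (median 32.1) in IDA hearts. The groups overlapped, and 6 of 10 IDA hearts were above the highest control heart. The means were 25.5 ± 2.89 against 31.3 ± 3.17 CPM (SD, n = 10 each, log2 fold change 0.30, standard error 0.07, edgeR adjusted p = 0.000747). The difference fell to 0.04 (edgeR adjusted p = 0.6) with the gene length correction and was 0.17 (edgeR adjusted p = 0.0332) with GC content added, so its call depended on the correction.

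The remaining soluble or membrane-bound factors of Complex I behaved in 3 ways. *Foxred1*, a flavoprotein needed for late assembly, and *Timmdc1*, a membrane factor of the proximal arm, were higher by 0.19 and 0.25 log2 units and stayed called after the length correction at 0.10 and 0.15. *Acad9*, an acyl-CoA dehydrogenase relative in the same intermediate assembly complex, gained, from 0.11 (edgeR adjusted p = 0.0191) to 0.28 (edgeR adjusted p = 8.04e-05). *Ndufaf4*, which works with *Ndufaf3* on the matrix arm, was not called as counted and was higher with the gene length correction, at 0.23 (edgeR adjusted p = 0.00304).

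In contrast, *Ndufaf1*, *Ecsit*, *Ndufaf2* and *Ndufaf3* were higher as counted but not called after the gene length correction. *Ndufaf1* and *Ecsit*, core members of the intermediate assembly complex, had log2 fold changes of 0.26 and 0.26, which became 0.05 and 0.09. *Ndufaf2*, a paralog of the subunit *Ndufa12* that holds its place in a late intermediate, went from 0.38 to 0.03, and *Ndufaf3* from 0.34 to 0.07. With GC content added, *Ndufaf1* and *Ndufaf2* were called higher, at 0.18 (edgeR adjusted p = 0.000594) and 0.11 (edgeR adjusted p = 0.025), whereas *Ecsit* and *Ndufaf3* were not, at 0.0043 (edgeR adjusted p = 0.94) and -0.0070 (edgeR adjusted p = 0.886). Of the exonic bases of *Ecsit*, 10.8% are shared with *Gm16845*, and reads of these genes cannot be told apart there because strand was not used.

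The paralogs *Tmem126a* and *Tmem126b* code for membrane factors of the distal and proximal membrane arm, respectively. *Tmem126a* ranged from 65.5 to 85.4 CPM (median 71.7) in control hearts and from 77.9 to 90.8 CPM (median 84.7) in IDA hearts, with means of 73.1 ± 7.0 against 84.3 ± 5.05 CPM (SD, n = 10 each, log2 fold change 0.21, standard error 0.05, edgeR adjusted p = 0.00117). After the gene length correction the same gene was lower, at -0.13 (edgeR adjusted p = 0.00537), and with GC content added it was 0.06 (edgeR adjusted p = 0.206). *Tmem126b* had a log2 fold change of 0.07 (edgeR adjusted p = 0.2) as counted and -0.25 (edgeR adjusted p = 0.000323) once corrected. Their exons are short, at 766 and 862 bp, and the direction of *Tmem126a* was thus not the same in the 3 fits.

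Of the 3 Complex III factors, *Bcs1l* alone was called higher without correction. *Bcs1l* (chr1:74588361-74592443) codes for the ATPase that moves the folded Rieske iron-sulfur protein through the inner membrane. It ranged from 71.5 to 84.5 CPM (median 76.6) in control hearts and from 82.0 to 99.7 CPM (median 91.1) in IDA hearts. In this gene, 8 of 10 IDA hearts were above the highest control heart. The means were 77.1 ± 4.92 against 92.3 ± 6.41 CPM (SD, n = 10 each, log2 fold change 0.26, standard error 0.05, edgeR adjusted p = 2.76e-05), and the difference was 0.11 (edgeR adjusted p = 0.0127) with the gene length correction and 0.11 (edgeR adjusted p = 0.0131) with GC content added.

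*Lyrm7* (chr11:54839289-54860591), the chaperone that holds the Rieske protein in the matrix before that step, ranged from 54.9 to 64.3 CPM (median 58.1) in control hearts and from 54.9 to 66.8 CPM (median 63.6) in IDA hearts. The groups overlapped widely. Its means were 58.9 ± 3.00 against 62.5 ± 4.15 CPM (SD, n = 10 each), and the difference did not pass the test (log2 fold change 0.08, standard error 0.04, edgeR adjusted p = 0.0874), nor when corrected for gene length, at 0.0005 (edgeR adjusted p = 0.993). With GC content added it was 0.18 (edgeR adjusted p = 0.00196). *Ttc19*, which clears fragments of the Rieske protein, had a log2 fold change of -0.07 (edgeR adjusted p = 0.185) as counted and 0.04 (edgeR adjusted p = 0.486) once corrected for length, and was called higher with GC content added, at 0.16 (edgeR adjusted p = 0.00453). The Rieske protein's own gene, *Uqcrfs1*, had 0.16 (edgeR adjusted p = 0.00874) as counted and -0.07 (edgeR adjusted p = 0.212) after the gene length correction.

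**Figure D2:**
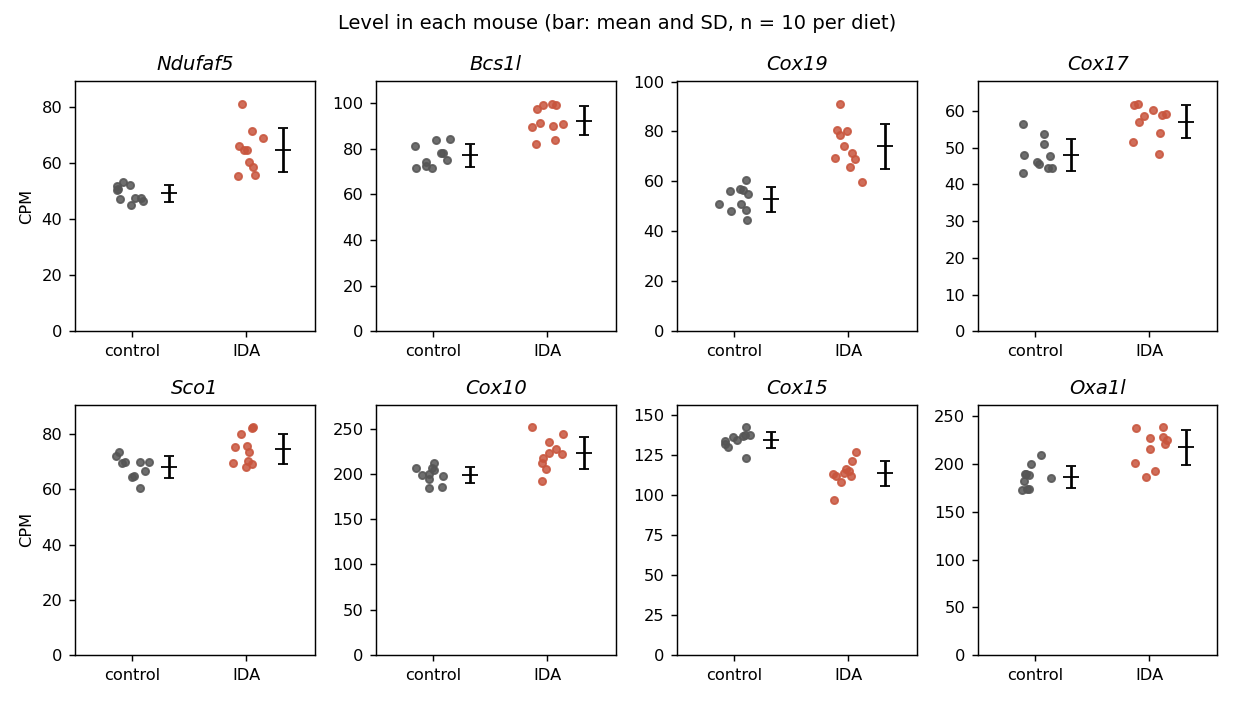
CPM of 8 assembly factors in each control and IDA heart (points, 10 per diet), with mean and SD beside them and axes that start at 0. The IDA hearts lie above every control heart for *Ndufaf5*, and 9 of 10 IDA hearts lie below every control heart for *Cox15*.

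Complex IV carries heme a and copper, and its 10 tested factors were split, with 6 higher, 2 lower and 2 not called without correction. With the gene length correction 3 were higher and 2 lower, and with GC content added 6 were higher and 1 lower. Heme a is made in successive steps by the products of *Cox10*, which attaches a farnesyl chain to heme, and *Cox15*, which oxidises the product. *Cox10* (chr11:63962627-64079472) ranged from 184 to 212 CPM (median 199.5) in control hearts and from 193 to 251.5 CPM (median 223) in IDA hearts, with means of 199 ± 8.90 against 223 ± 17.5 CPM (SD, n = 10 each, log2 fold change 0.17, standard error 0.04, edgeR adjusted p = 0.00152). *Cox15* (chr19:43733254-43753000) ranged from 123 to 142 CPM (median 135) in control hearts and from 97.1 to 127 CPM (median 113) in IDA hearts, with means of 134 ± 5.13 against 114 ± 7.90 CPM (SD, n = 10 each, log2 fold change -0.24, standard error 0.04, edgeR adjusted p = 1.23e-05). The enzymes of this pathway thus moved in opposite directions as counted.

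After the gene length correction *Cox10* stayed higher, at 0.20 (edgeR adjusted p = 0.000923), whereas *Cox15* was at 0.03 (edgeR adjusted p = 0.521), no longer lower. With GC content added both were called higher, at 0.12 (edgeR adjusted p = 0.04) and 0.10 (edgeR adjusted p = 0.0424). The call of *Cox15* was thus lower as counted and higher in that fit. The exons of *Cox15*, at 4798 bp, are the longest among the members, and 12.5% of these bases are shared with *Entpd7*. *Surf1*, a factor for heme a in the subunit COX1, was higher as counted at 0.29 (edgeR adjusted p = 0.000168) and not called once corrected, at 0.03 (edgeR adjusted p = 0.626).

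The log2 ratio of *Cox10* to *Cox15* within each heart does not depend on library size. It was 0.566 ± 0.0881 in control mice and 0.974 ± 0.107 in IDA mice (SD, n = 10 each), a difference of 0.41. Every IDA heart, the lowest at 0.823, was above the highest control heart at 0.778. The p of the two-sided permutation test, 1e-05, is the smallest that 100000 resamples can give (5e-05 adjusted over 5 ratios). Corrected for gene length, the difference was 0.17 (permutation test, p = 2e-05, adjusted 0.0001), with the lowest IDA heart at 0.766 and the highest control heart at 0.794. The ratio was not computed with GC content added, where *Cox10* and *Cox15* were close, at log2 fold changes of 0.12 and 0.10.

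Copper reaches Complex IV through *Cox17*, which passes it to the products of *Sco1* and *Sco2* for COX2 and of *Cox11* for COX1, and *Cox19* acts together with *Cox11*. As counted, the largest change among the 30 factors was that of *Cox19* (chr5:139337822-139345166). It ranged from 44.6 to 60.4 CPM (median 53.0) in control hearts and from 59.7 to 91.1 CPM (median 72.8) in IDA hearts, with 9 of 10 IDA hearts above the highest control heart. The means were 52.8 ± 4.93 against 74.0 ± 8.90 CPM (SD, n = 10 each), a 1.4-fold difference (log2 fold change 0.49, standard error 0.07, edgeR adjusted p = 1.82e-06). It remained called at 0.15 (edgeR adjusted p = 0.012) after the gene length correction and 0.15 (edgeR adjusted p = 0.0149) after that for length and GC content, at less than the counted size.

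*Cox17* (chr16:38346999-38352763) ranged from 43.1 to 56.4 CPM (median 47.0) in control hearts and from 48.3 to 62.0 CPM (median 58.8) in IDA hearts, with means of 48.1 ± 4.39 against 57.1 ± 4.47 CPM (SD, n = 10 each, log2 fold change 0.25, standard error 0.06, edgeR adjusted p = 0.000454). It has the shortest exons of the members, at 436 bp. With the gene length correction it was lower in IDA hearts, at -0.13 (edgeR adjusted p = 0.0163), and with GC content added it was -0.01 (edgeR adjusted p = 0.902). Its direction was therefore not the same in the fits.

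*Sco1* (chr11:67052670-67067440) ranged from 60.4 to 73.5 CPM (median 69.7) in control hearts and from 68.2 to 82.4 CPM (median 74.5) in IDA hearts, with means of 68.2 ± 3.98 against 74.6 ± 5.46 CPM (SD, n = 10 each, log2 fold change 0.13, standard error 0.05, edgeR adjusted p = 0.0139). The ranges overlapped, but all 10 IDA hearts were above the control mean. Unlike *Cox17*, it gained with the corrections, to 0.35 (edgeR adjusted p = 4.31e-05) and 0.49 (edgeR adjusted p = 6.2e-06). *Cox11* (chr11:90638184-90645977) ranged from 47.1 to 54.9 CPM (median 49.98) in control hearts and from 50.5 to 60.9 CPM (median 56.3) in IDA hearts, with means of 50.3 ± 2.29 against 55.8 ± 3.39 CPM (SD, n = 10 each, log2 fold change 0.15, standard error 0.04, edgeR adjusted p = 0.00277). That change was 0.08 (edgeR adjusted p = 0.0938) with the gene length correction and 0.25 (edgeR adjusted p = 6.3e-05) with GC content added, and 12.7% of its exonic bases are shared with *Tom1l1*.

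*Sco2* (chr15:89371637-89373818), the paralog of *Sco1*, was listed at 0 in all 20 mice. All of its 1145 exonic bases are shared with the exons of *Ncaph2* and *Tymp* in the annotation. The files hold no value from which its level could be read, and the 0 gives no limit on it. The further Complex IV factor *Pet117* was likewise listed at 0 in every mouse, with 84.8% of its exonic bases shared with *Csrp2bp*.

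The other Complex IV factors act on the synthesis and insertion of the mitochondrially coded subunits. *Lrpprc*, which stabilises mitochondrial mRNAs together with *Slirp*, was lower as counted at -0.16 (edgeR adjusted p = 0.00642), with 6 of 10 IDA hearts below the lowest control heart, but was 0.09 (edgeR adjusted p = 0.115) with the gene length correction and 0.19 (edgeR adjusted p = 0.00445) with GC content added. *Slirp* was higher as counted at 0.36 (edgeR adjusted p = 3.4e-05) and -0.02 (edgeR adjusted p = 0.718) with the correction. *Taco1*, a translational activator of COX1, was 0.02 (edgeR adjusted p = 0.641) as counted, -0.21 (edgeR adjusted p = 0.00106) with the length correction and -0.24 (edgeR adjusted p = 0.000559) with GC content added.

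*Oxa1l* (chr14:54360841-54369669) codes for the insertase that places proteins made in the matrix into the inner membrane. Its log2 fold change was 0.22 (edgeR adjusted p = 0.000296) as counted, 0.20 (edgeR adjusted p = 0.002) with the gene length correction and 0.16 (edgeR adjusted p = 0.00979) with GC content added, with 9.0% of its exonic bases shared with *Slc7a7*. It ranged from 173 to 209 CPM (median 187) in control hearts and from 187 to 238.5 CPM (median 223) in IDA hearts, so that all 10 IDA hearts stood above the control mean and 7 of 10 above the highest control heart. Its relative *Cox18*, which exports the tail of COX2, had a log2 fold change of 0.12 (edgeR adjusted p = 0.133) as counted and -0.12 (edgeR adjusted p = 0.113) corrected. The log2 ratio of *Oxa1l* to *Cox18* differed between diets by 0.11 as counted (permutation test, p = 0.149, adjusted 0.149) and by 0.31 with the gene length correction (permutation test, p = 0.00106, adjusted 0.00265).

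The Complex V factors bind single subunits of the F1 head before it closes. *Atpaf2* (chr11:60400624-60417099), the chaperone of the alpha subunit, ranged from 78.4 to 89.8 CPM (median 82.1) in control hearts and from 84.8 to 97.8 CPM (median 90.1) in IDA hearts, with means of 82.3 ± 3.55 against 90.7 ± 4.07 CPM (SD, n = 10 each, log2 fold change 0.14, standard error 0.03, edgeR adjusted p = 0.00123). Corrected for gene length, its change was -0.0016 (edgeR adjusted p = 0.973). *Atpaf1*, the chaperone of the beta subunit, was -0.07 (edgeR adjusted p = 0.267) as counted and -0.13 (edgeR adjusted p = 0.0622) corrected. Neither of their clients was called: *Atp5a1* (alpha) had 0.10 (edgeR adjusted p = 0.0944) and *Atp5b* (beta) 0.11 (edgeR adjusted p = 0.0687).

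The log2 ratio of *Atpaf1* to *Atpaf2* was lower in IDA hearts as counted and with the gene length correction. As counted it was -1.28 ± 0.0921 in control and -1.497 ± 0.141 in IDA mice (SD, n = 10 each, permutation test, p = 0.00157, adjusted 0.00262). The difference between diets was -0.21, and -0.13 after correction for gene length (permutation test, p = 0.025, adjusted 0.0312). The ratio was not computed with GC content added. In that fit *Atpaf1* was at 0.02 (edgeR adjusted p = 0.818) and *Atpaf2* at -0.04 (edgeR adjusted p = 0.327), the opposite order of changes. The ratio of *Tmem126a* to *Tmem126b*, genes of similar exonic length, was higher by 0.14 as counted (permutation test, p = 0.0187, adjusted 0.0234) and by 0.12 corrected (permutation test, p = 0.0321, adjusted 0.0321). As counted it passed an exact permutation test, before adjustment, in 87 of 100 sets that left out 1 mouse of each diet, and without control mouse 9 and IDA mouse 10 it was 0.101 (exact permutation test, p = 0.0659). That of *Ndufaf3* to *Ndufaf4*, whose exons measure 1067 and 3632 bp, was higher by 0.25 as counted (permutation test, p = 3e-05, adjusted 7.5e-05) and lower after the correction, at -0.17 (permutation test, p = 0.00777, adjusted 0.0129).

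**Figure D3:**
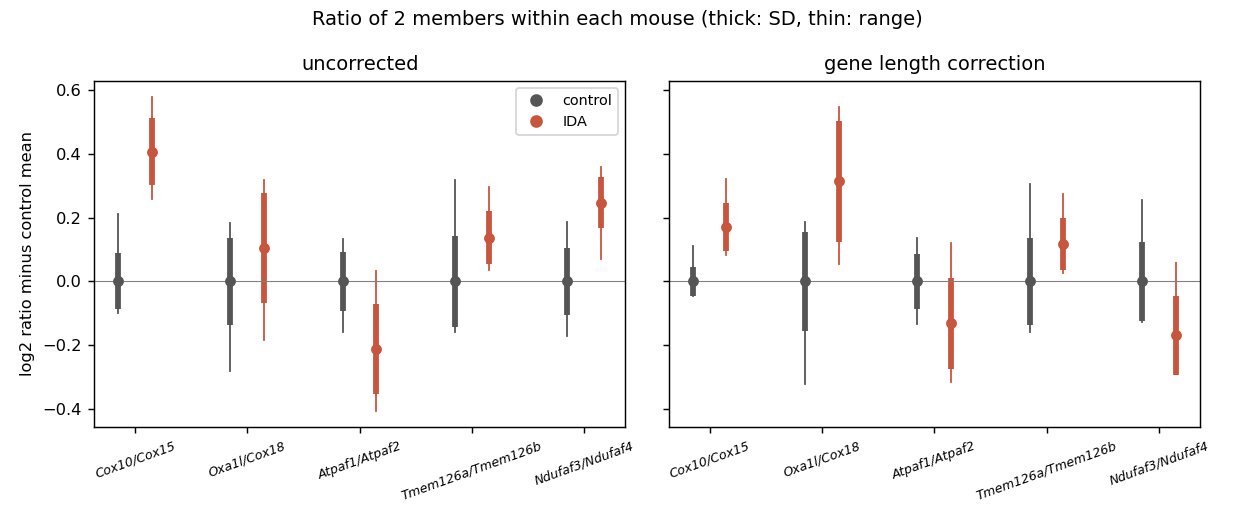
Within-heart log2 ratio of 5 pairs of assembly factors, drawn as the difference from the control mean, with SD (thick) and range (thin) for each diet (10 mice each), as counted (left) and after the gene length correction (right). *Cox10*/*Cox15* was higher in IDA hearts in both panels and *Ndufaf3*/*Ndufaf4* changed sign. Ratios were not computed with GC content added.

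Levels between genes were compared per kilobase of exon. In control hearts *Cox17* had the highest mean level of the 31, at 110.3 CPM per kb, followed by *Tmem126a* at 95.5, *Lrpprc* at 85.2 and *Ecsit* at 83.8. The lowest detected were *Atpaf1* at 14.4, *Cox18* at 15.8 and *Sco1* at 15.9 CPM per kb. The authors removed PCR duplicates, which limits how many read pairs can be counted per base. The most read pairs per exonic base in any mouse were 1.04 among the factors, in *Cox17*, and 1.71 among the structural subunits.

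The lists of other assembly factors and of structural subunits put the members beside the rest of the chain. Of 25 further assembly factors tested, 22 were higher and 2 lower as counted, and 8 higher and 3 lower with the gene length correction. Of all tested genes, 35.0% were called higher and 32.5% lower as counted, and 31.5% and 23.5% with that correction. Of 74 structural subunits tested, 68 were higher and 0 lower as counted, but 2 higher and 46 lower with that correction, with a median log2 fold change going from 0.19 to -0.14. For the members the median went from 0.20 to 0.07. Subunit genes are shorter, with a median of 649 bp of exon against 1970 bp for the members. With log2 library size as a term, 23 subunits were higher and 1 lower, with a median log2 fold change of 0.04. In that fit 16 members were higher and 2 lower, with a median of 0.11, beside 29.1% and 29.1% of all genes. Whether the limit on read pairs per base after duplicate removal shaped the subunit counts was not tested. A test of the difference between these lists was not made.

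**Figure D4:**
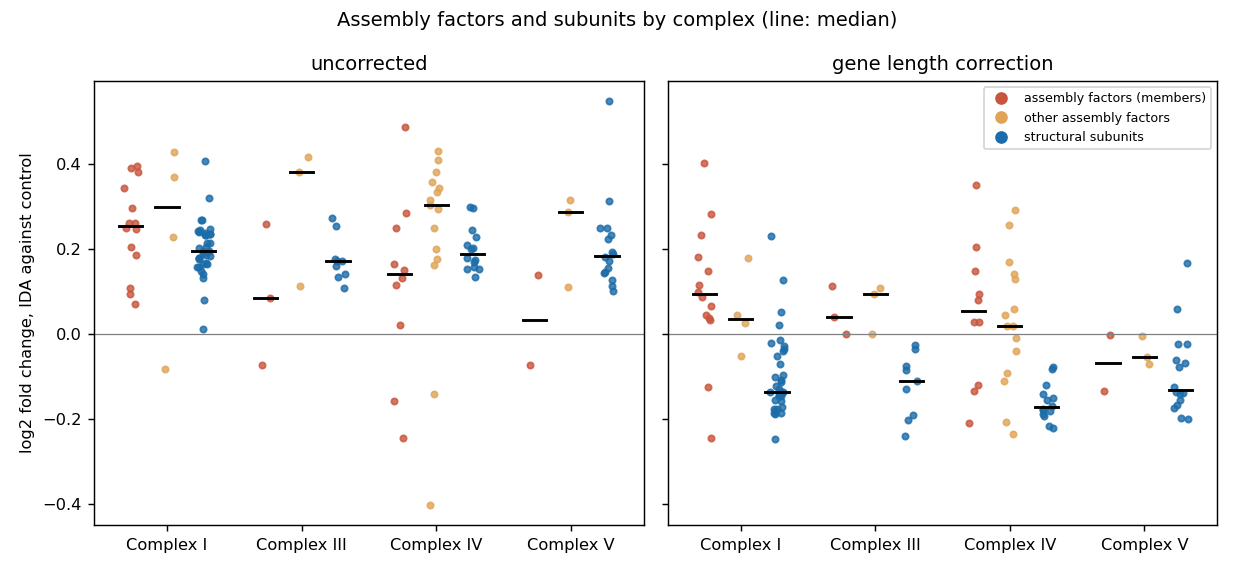
Log2 fold change (IDA against control) of the assembly factors, further assembly factors and structural subunits of each complex, with the median of each group as a line, as counted (left) and after the gene length correction (right); *Oxa1l* is not drawn. Subunit medians lie between 0.17 and 0.20 on the left and between -0.17 and -0.11 on the right, and the Complex I factors at 0.26 and 0.09.

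Among the further factors the largest increases by complex were those of *1810043H04Rik* (NDUFAF8, a partner of NDUFAF5) at 0.43 (edgeR adjusted p = 1.56e-05), *AI462493* (UQCC3) at 0.42 (edgeR adjusted p = 1.19e-06), *Pet100* at 0.43 (edgeR adjusted p = 8.15e-05) and *1110001J03Rik* (FMC1) at 0.32 (edgeR adjusted p = 5.23e-05). With the gene length correction, *AI462493* stayed called at 0.09 (edgeR adjusted p = 0.0361) and *Pet100* at 0.17 (edgeR adjusted p = 0.0322). With GC content added, *AI462493* was not called at 0.08 (edgeR adjusted p = 0.0827) and *Pet100* was, at 0.18 (edgeR adjusted p = 0.0276). Of the 25 further factors tested, 7 were higher and 1 lower in all 3 fits, beside 14.1% and 13.3% of all genes. The strongest decrease was that of *Coa5*, a Complex IV factor, at -0.40 (edgeR adjusted p = 2.19e-06) as counted, -0.24 (edgeR adjusted p = 0.00013) with the length correction and -0.12 (edgeR adjusted p = 0.0117) with GC content added, lower in all 3 fits. Of the subunits, *Ndufs7*, the target of NDUFAF5, had 0.20 (edgeR adjusted p = 0.00173) as counted and -0.14 (edgeR adjusted p = 0.0111) corrected. *Ndufa12*, the paralog of *Ndufaf2*, had 0.27 (edgeR adjusted p = 0.000542) and -0.10 (edgeR adjusted p = 0.0764).

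**Figure D5:**
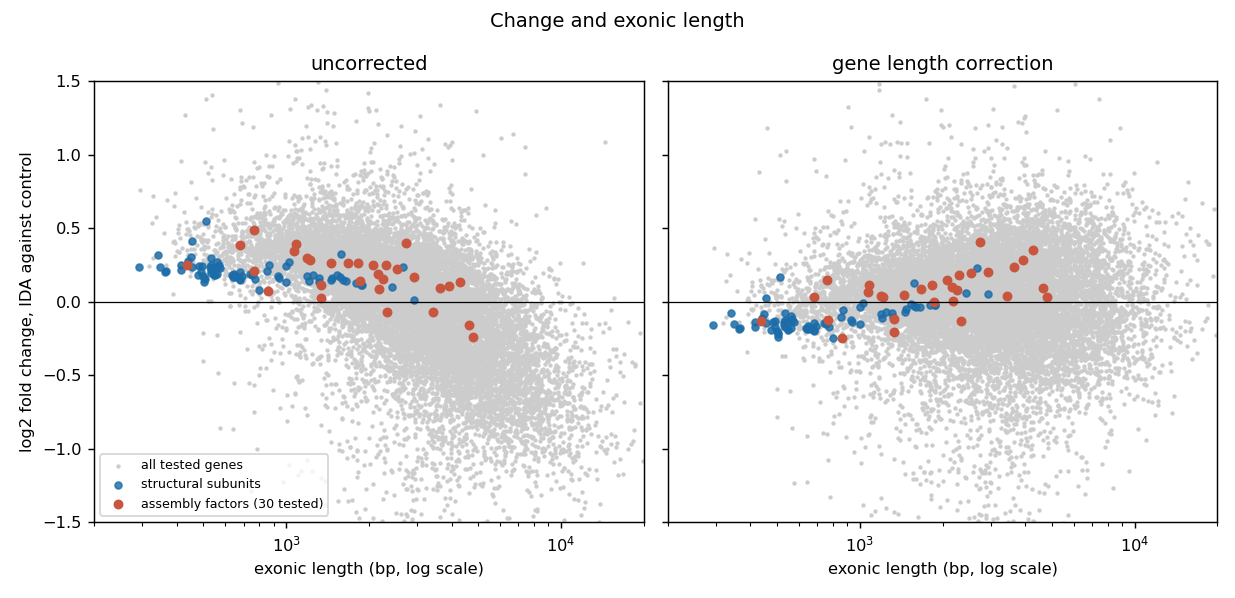
Log2 fold change (IDA against control) against exonic length (log scale) for all tested genes (grey; those beyond 1.5 in size are not drawn), structural subunits (blue) and the 30 tested assembly factors (red), as counted (left) and after the gene length correction (right). As counted, the fold change falls with length, from a median of 0.34 in the shortest of 10 bins of genes to -0.53 in the longest.

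The library numbers in the column names fall into a lower run (5 control and 7 IDA mice) and a higher run (5 control and 3 IDA mice), whose meaning the labels do not give. Without correction, 18 of the 30 tested factors were higher and 1 lower within the lower run, beside 30.2% and 28.7% of all genes, and 10 were higher and 2 lower within the higher run, beside 19.4% and 24.1%. For *Ndufaf5* the log2 fold changes were 0.36 and 0.48, for *Cox19* 0.50 and 0.45, and for *Cox15* -0.23 and -0.27. With the gene length correction, 9 were higher and 2 lower within the lower run, beside 25.1% and 17.8% of all genes, and 4 were higher and 2 lower within the higher run, beside 14.7% and 14.7%. *Ndufaf4*, *Ndufaf5*, *Acad9* and *Sco1* were higher by the length-corrected test in each run. Of these, *Ndufaf4*, at 0.29 in the lower run and 0.23 in the higher, was not called as counted. Of the 74 structural subunits, that correction called 3 higher and 2 lower within the lower run (median log2 fold change -0.07) and 0 higher and 48 lower within the higher run (median -0.23).

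In 100 fits without the gene length correction that each left out 1 mouse of each diet, 21 of the 23 uncorrected calls held every time. *Acad9* was called in 75, and its call ended where control mouse 4, 5, 7, 8 or 9 was left out together with IDA mouse 1, 2, 6, 8 or 10. *Sco1* was called in 86, in 4 of the 10 fits without control mouse 8 and in 5 of the 10 without IDA mouse 1. The next 2 fits were also made without the gene length correction. A fit that took log2 library size as a term called 16 factors higher and 2 lower, beside 29.1% and 29.1% of all genes. *Acad9*, *Tmem126a*, *Sco1*, *Cox10* and *Cox11* did not pass in it. With the mean erythroid marker level as a covariate, 19 were higher and 1 lower, beside 24.4% and 24.6% of all genes. *Sco1*, *Cox17*, *Lrpprc* and *Atpaf2* did not pass there. The erythroid level did not overlap between diets, with at most 3.53 in control and at least 3.97 in IDA mice (mean log2 CPM). Diet and erythroid level therefore cannot be told apart well in that fit, and a lost call does not tie a gene to erythroid cells. Of the 10 factors higher in all 3 fits, *Sco1* passed neither the library size fit nor the erythroid fit.

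Promoters were searched in RefSeq's windows from 250 bases before to 50 bases after the gene start (GRCm38.p6), which were found for 27 of the 31 members. CCGGAAG, a core of ETS factor motifs, stood on either strand in 9 of the 27, beside 9.93% of 27025 genes with a window. CGCANGCGC, an NRF1 motif, stood in 4 (7.12% of genes) and AAGATGGCG, a YY1 motif, in 4 (1.64%). ACGTG, a form of the core of hypoxia response elements, stood in 9 (21.8%), and no other form was searched. TCAAGGTCA, an ERR motif, stood in none of the 27 (0 members, 0.47% of genes). None of the 5 motifs contains another, and matches were counted once per gene. The genes with a window were not limited to those tested in these hearts, and no enrichment was tested. A match describes letters and not a bound factor.

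The ETS and NRF1 matches that lay wholly before the start in factors higher in all 3 fits are shown with 10 bases on each side, 5′ to 3′ along the gene, and the motif in capitals (as CCGGAAG or its complement CTTCCGG for ETS, and the NRF1 motif's complement for *Oxa1l*).
*Bcs1l* (chr1:74588232-74588258, + strand): gtgggtgtggCCGGAAGtagatgcagc
*Cox10* (chr11:64079483-64079509, - strand): gcgctgggagCCGGAAGtgacaagagg
*Sco1* (chr11:67052615-67052641, + strand): cctccttcggCTTCCGGcagaagcgga
*Timmdc1* (chr16:38522680-38522706, - strand): aggggcggggCTTCCGGtctcctttcc
*Oxa1l* (chr14:54360808-54360836, + strand): agttctgagtGCGCGTGCGcgagagtaag
The ETS match was 47 bases before the start in *Bcs1l*, 27 in *Cox10* and 45 in *Sco1*, and the NRF1 match was 23 bases before it in *Oxa1l*, counted from the RefSeq start. *Timmdc1* held 4 matches, of which the one 33 bases before the start is shown. Matches wholly before the start also stood in factors not higher in all 3 fits. These were the ETS motif in *Ndufaf1* and *Tmem126a* and the NRF1 motif in *Ndufaf4* and *Ttc19*. The members with the largest changes as counted, *Ndufaf5* and *Cox19*, had no ETS match in their windows, and *Ndufaf5* held an NRF1 match 17 bases after its start.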

How the data were processed

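Messenger RNA from whole hearts of 20 mice (10 per diet) was sequenced. STAR was used by the authors for alignment to mm10. PCR duplicates were taken out with samtools, and featureCounts (version 1.4.5-p1) then assigned read pairs to exons, ignoring strand. The deposited values are raw counts for 23420 genes, not normalized. Mice were grouped by their labels.

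The 13590 genes that reached 1 CPM in 10 or more mice were tested in R 4.3.3 with the quasi-likelihood test of edgeR 4.0.16 with TMM factors and diet as the only factor, and DESeq2 1.42.0 was an alternative. CPM values were scaled by TMM. The gene length correction entered, as offsets, a loess curve (span 0.5) of each mouse's log2 deviations from the gene means on log2 exonic length, and a further fit added transcript GC content (known for 99.1% of tested genes). Such corrections remove any trend on length, of whatever origin. Log2 ratios used a prior count of 2 and permutation tests with 100000 resamples; *Sco1*/*Sco2* was planned and could not be computed.

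Values in full were given for the called factors with the most positive and the most negative change in each complex. The same holds for factors that handle iron-sulfur proteins, heme or copper. It also holds for factors called in opposite directions by the uncorrected and the length-corrected fit. Others that do not overlap between diets were added after their values were seen, as were *Oxa1l*, *Lrpprc* and the runs of library numbers. The members and lists were chosen with earlier results of these data known. The steps were tested on simulated data. Further alternatives were other normalizations, filters, covariates, a replicate block and fits without 1 mouse of each diet. Some genes of the lists are not reported here by name.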

Additional observations from a re-analysis of the deposited data

Results flagged for a closer look

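Of 70 sets of 10 values examined (each tested factor and each ratio in each diet), 4 held a mouse far from the other nine by Dixon's test, about as many as the 1 in 20 that chance gives. *Ndufaf3* was 75.95 CPM in IDA mouse 1, against 67.06 in the next highest IDA mouse. *Ttc19* was 141.2 CPM in control mouse 1, against 129.3 in the next. The log2 ratio of *Cox10* to *Cox15* was 0.7776 in control mouse 2, against 0.6311 in the next, and that of *Tmem126a* to *Tmem126b* was 1.094 in the same mouse, against 0.8521 in the next.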

How the results depend on the processing

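Of 600 log2 fold changes of the tested factors over 20 alternative settings, 457 kept their direction and call, 73 lost the call, 18 gained one and 52 changed direction, mostly under the corrections for gene length and GC content. The number of factors higher stayed at 21 with DESeq2, DESeq2 size factors in edgeR and either other filter, and was 23 with upper-quartile factors and 25 with library size alone. Of all 13590 tested genes, 5154 were higher with upper-quartile factors and 5493 with library size alone, against 4761 with TMM factors. Any cause of the shifts below was not tested.

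With the gene length correction, 11 factors were higher and 4 lower (Complex I 6 and 2, Complex IV 3 higher, Complex V 0 higher), 8 further factors were higher, and 2 structural subunits were higher and 46 lower. The ratio of *Oxa1l* to *Cox18* passed the test at 0.31, and that of *Ndufaf3* to *Ndufaf4* reversed to -0.17. Directions changed for *Tmem126a* (-0.13), *Tmem126b* (-0.25), *Ttc19* (0.0396), *Cox15* (0.0292), *Cox17* (-0.13), *Cox18* (-0.12), *Taco1* (-0.21), *Lrpprc* (0.0948) and *Atpaf2* (-0.0016).

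With gene length and GC content, 1 factor was lower, in Complex IV, 3 of Complex III and 0 of Complex V were higher, 9 further factors were higher and 4 lower, and 6 subunits were higher and 40 lower. Directions changed for *Ndufaf3* (-0.0070), *Tmem126b* (-0.0705), *Ttc19* (0.16), *Cox15* (0.10), *Cox17* (-0.0072), *Cox18* (-0.0474), *Taco1* (-0.24), *Lrpprc* (0.19), *Atpaf1* (0.0192) and *Atpaf2* (-0.0415).

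The replicate numbers did not pair the mice: the correlations of same-numbered mice lay between -0.278 and 0.264, only 3 of 10 were above 0.1, and 1 IDA mouse correlated best with its number. The replicate block alone left 21 higher and 2 lower, beside 4584 and 4328 of all 13590 tested genes. The replicate block with the length correction gave 10 higher and 4 lower (Complex I 5 and 2, Complex IV 3 higher, Complex V 0 higher), beside 3975 and 3015 of all tested genes. It also gave 7 further factors higher, and 2 subunits higher and 41 lower. Directions changed there for *Tmem126a* (-0.13), *Tmem126b* (-0.24), *Ttc19* (0.0390), *Lyrm7* (-0.00092), *Cox15* (0.0286), *Cox17* (-0.14), *Cox18* (-0.12), *Taco1* (-0.21), *Lrpprc* (0.0931) and *Atpaf2* (-0.0021).

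With the library size covariate, 3 Complex IV factors and 23 subunits were higher, 1 subunit and 1 further factor were lower, and *Ndufaf4* was at -0.0110. With the erythroid covariate, 1 factor (Complex IV) and 1 further factor were lower, 2 of Complex III, 0 of Complex V and 29 subunits were higher, and *Cox18* was at -0.0045. Upper-quartile factors and library size alone each gave 2 higher in Complex III, and library size alone and p below 0.01 in both tools each left 1 further factor lower. In the lower run of library numbers, 1 factor (Complex IV) and 1 further factor were lower, 0 of Complex V was higher, and *Taco1* was at -0.0042. In the higher run, 10 factors (Complex I 7, Complex IV 1) and 5 subunits were higher and 1 further factor lower.

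With the gene length correction within the lower run, 9 factors were higher (Complex I 6, Complex III 0, Complex IV 2, Complex V 0) and 2 lower (Complexes I and IV 1 each), 5 further factors were higher, and 3 subunits were higher and 2 lower. Directions changed for *Tmem126a* (-0.0804), *Tmem126b* (-0.26), *Ttc19* (0.0781), *Cox15* (0.0565), *Cox17* (-0.0636), *Cox18* (-0.14), *Taco1* (-0.24), *Lrpprc* (0.17) and *Atpaf2* (-0.0253). Within the higher run, 4 were higher (Complex I 3, Complex III 0, Complex IV 1, Complex V 0) and 2 lower (Complexes I and IV 1 each), 2 further factors were higher, and 0 subunits were higher and 48 lower. Directions changed for *Ndufaf2* (-0.00052), *Nubpl* (-0.0609), *Tmem126a* (-0.19), *Tmem126b* (-0.22), *Ttc19* (0.0260), *Lyrm7* (-0.0018), *Surf1* (-0.0929), *Cox17* (-0.26), *Cox18* (-0.13) and *Taco1* (-0.19).

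Leaving out 1 mouse of each diet, without the gene length correction, gave 19 to 23 factors higher (Complex III 1 to 2) and 1 to 3 further factors lower. *Taco1* was then at -0.0082 to 0.0510. The ratio of *Oxa1l* to *Cox18* was 0.0501 to 0.158, and that of *Tmem126a* to *Tmem126b* 0.101 to 0.184. By exact permutation tests before adjustment, p was below 0.05 in 3 of the 100 sets for the former ratio and 87 for the latter. Mean read pairs per control mouse ranged from 161.9 (*Cox18*) to 3017 (*Lrpprc*), so that changes of the lowest factors are the least precise.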
